A study of Mus musculus with 3 samples.

Results

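The clustered histone genes of the mouse were followed in RNA from the chromatin fraction of bone marrow-derived macrophages. A gene was taken as a member when its symbol began with Hist1h, Hist2h, Hist3h or Hist4h and the deposited tables listed a protein-coding transcript for it. The rule gave 67 genes of 55536 genes in the tables, or of 22028 protein-coding genes. They comprised 6 H1, 18 H2A, 18 H2B, 12 H3 and 13 H4 genes. The macrophages were primary cells of strain C57BL/6J that had received 100 ng/ml lipid A, the part of bacterial lipopolysaccharide sensed by Toll-like receptor 4, for 50 min. Ribosomal RNA had been depleted, and the RNA amount entering the library was 1000 ng in replicate 1, 250 ng in replicate 2 and 500 ng in replicate 3. The sex and age of the animals were not collected, and the 3 libraries carry a common donor code, so the spread between them may be technical. All 3 belong to 1 treated group. Untreated cells were not analysed here, so nothing below is a response to lipid A.

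Histones package DNA into nucleosomes, in which H2A, H2B, H3 and H4 form the core and H1 binds the linker DNA. The genes in these clusters are known as replication-dependent: their mRNAs accumulate during S phase, when new DNA needs new nucleosomes, and fall when replication ends. They are small, mostly without introns, and their mRNAs normally end shortly after a conserved stem-loop instead of in a poly(A) tail. The stem-loop is bound by Slbp, and the U7 small nuclear ribonucleoprotein with the nuclease Cpsf3 makes the cut, while Npat drives transcription of the clusters. Separate variant genes are known as replication-independent, and some of them, such as H3f3a and H3f3b, make histones throughout the cell cycle from polyadenylated, spliced mRNAs. A library prepared by ribosomal depletion does not select for poly(A), so both kinds of mRNA can enter it.

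In the mm10 build the members fell in 5 stretches. On chromosome 13 the Hist1 cluster had 23 genes between 21715763 and 22043676 and 31 genes between 23531050 and 23934851. The Hist2 cluster had 10 genes on chromosome 3 between 96219865 and 96270132, Hist3 had 2 genes on chromosome 11 between 58948920 and 58956830, and Hist4 was 1 gene, Hist4h4, on chromosome 6 from 136801553 to 136804415. A single exon made up the main annotated transcript of 63 of the 67 genes, and the median length was 534 bases.

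The stem-loop was searched by its known consensus in the GENCODE M21 transcript sequences, on the strand of the transcript. A match after the stop codon was found in 46 of 67 members (68.7%), and a match anywhere in a protein-coding transcript in 69 of 21834 other genes (0.316%). The sites below show how the stem differed between histone types, with the matched stem and loop in capitals.

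Hist1h1c: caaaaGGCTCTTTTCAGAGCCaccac
Hist1h3e: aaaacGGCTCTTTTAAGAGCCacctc
Hist2h2ac: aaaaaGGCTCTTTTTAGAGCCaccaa
Hist1h4c: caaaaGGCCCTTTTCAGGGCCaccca
Hist1h4i: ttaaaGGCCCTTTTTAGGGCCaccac
Hist1h4j: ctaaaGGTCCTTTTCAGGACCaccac

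The form in Hist1h1c was the most common and stood in 26 genes of the H1, H2A, H2B and H3 types. All 34 matches outside H4 opened with GGCTC. The 12 matches in H4 genes opened with GGCCC in 10 genes and with GGTCC in 2 genes, with the partner bases changed on the other arm. The whole site of Hist2h2ac, stem and loop together, was found in no other member, and 6 genes shared the form of Hist1h3e.

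H2A and H2B genes are often arranged head to head, with a short stretch of DNA serving as promoter for both. Starts at most 400 bases apart were found for 12 such pairs (24 genes), with 175 to 305 bases between them. The stretch between Hist2h2ac, read to the left, and Hist2h2be, read to the right, is printed because the former had the highest level of all members and the latter the largest gap between the deposited quantifications. It lies at chr3:96220881-96221118 (GRCm38.p6, plus strand) and comes from RefSeq. Capitals mark a TATAAA box on the minus strand, 3 CCAAT boxes (the first on the minus strand) and the octamer ATTTGCAT on the plus strand.

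Hist2h2ac to Hist2h2be: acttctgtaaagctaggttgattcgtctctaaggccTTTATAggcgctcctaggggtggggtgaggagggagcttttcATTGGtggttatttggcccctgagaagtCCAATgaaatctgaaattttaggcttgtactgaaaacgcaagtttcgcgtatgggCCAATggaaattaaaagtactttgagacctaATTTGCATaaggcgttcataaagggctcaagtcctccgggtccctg

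CCAAT boxes are sites of the factor NF-Y, and the octamer is the site through which Oct-1 acts on H2B genes. RefSeq promoters, from 250 bases before to 50 bases after the start, were matched for 62 of 67 members and searched on both strands. CCAAT occurred in 53 of them (85.5%), against 37.4% of all 32851 promoters in the table. It was present in every matched H1, H2A, H2B and H3 promoter but in 3 of 12 H4 promoters (25.0%). TATAAA occurred in 35 member promoters (56.5%), against 13.6% of all promoters. The octamer occurred in 14 member promoters (22.6%), against 1.74% of all, and these were 7 of 18 H2A and 7 of 16 H2B promoters. Windows of head-to-head genes can overlap, so the same site can count for both genes of a pair. These numbers are therefore of promoters, not of separate sites. A match of letters is not evidence of binding, and no binding data were analysed here.

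Few reads came from these genes. The authors deposited 2 quantifications of the same libraries, and values below are from the first unless the second is named. The values were expected counts (reads assigned to a gene by estimation, which need not be whole) and TPM (a level adjusted for transcript length and library size). Expected counts over all 67 genes summed to 374.7, 710.9 and 386.3 in replicates 1, 2 and 3, out of 10496703, 17687379 and 14806118 counts over all genes. The single variant gene H3f3b had 988, 1463 and 1267 counts, more than all clustered genes together in each library. Summed TPM was 54.4, 62.0 and 45.5, or 53.9 ± 8.25 (SD, n = 3). On this scale, which adjusts for length, H3f3b had 45.0, 44.0 and 56.0 TPM and was above the sum in replicate 3 only. Of the 67 members, 9 (13.4%) had at least 10 expected counts in each library, against 43.9% of protein-coding genes. A mean of at least 1 TPM was reached by 15 members (22.4%), against 38.4% of protein-coding genes. When protein-coding genes alone set the TPM scale, the summed TPM averaged 281.3. The median of mean TPM was 0.473 over members and 0.223 over protein-coding genes, and the median of mean counts was 3.66 over members and 6.33 over protein-coding genes. At least 1 count in each library was seen for 37 members, and 6 members had 0 in all libraries.

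**Figure D1:**
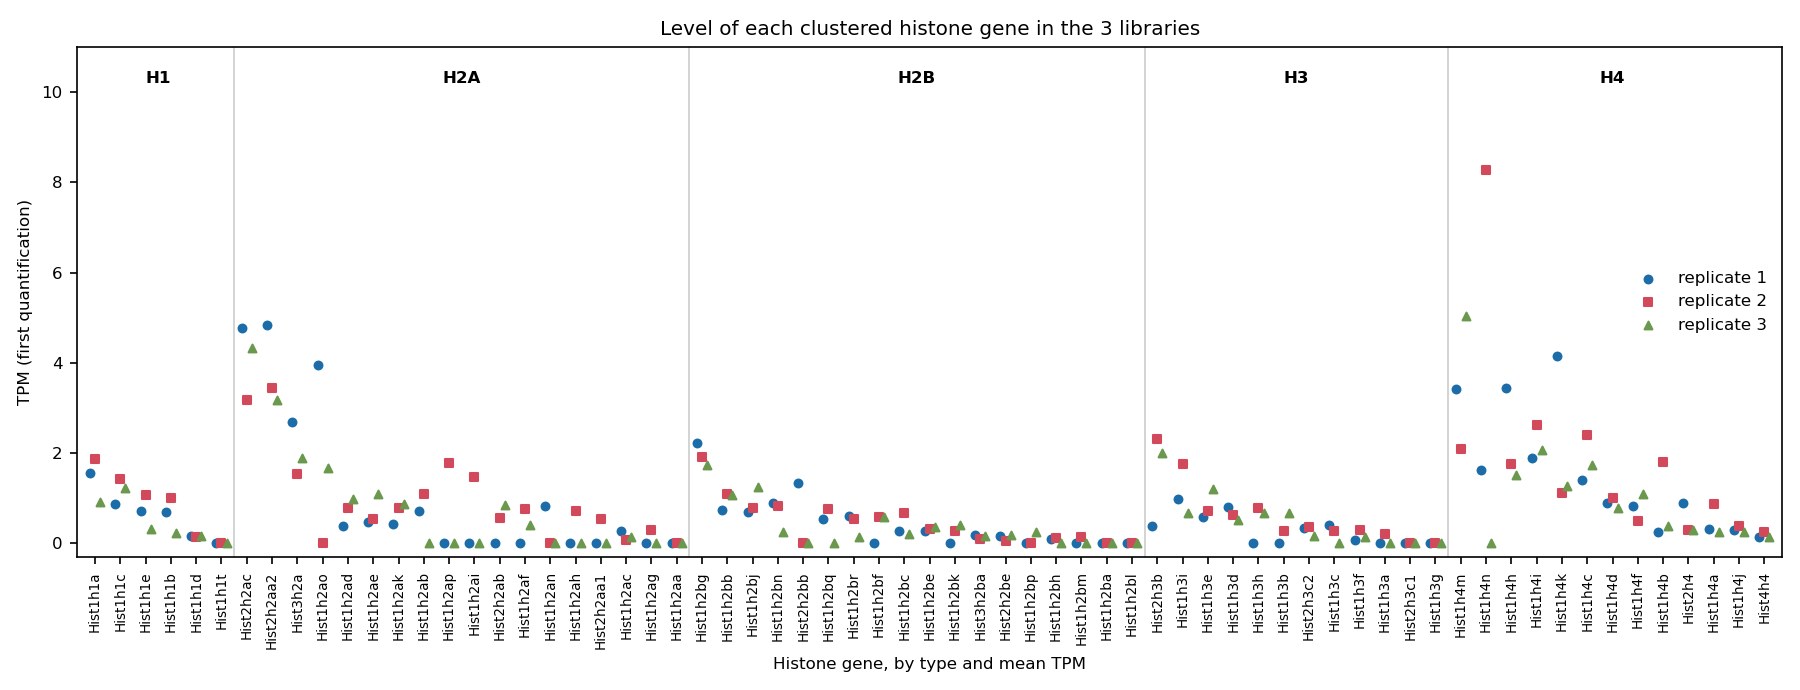
TPM of each clustered histone gene (y axis, first quantification) in replicates 1, 2 and 3, with genes on the x axis grouped by histone type and ordered by mean TPM. Most points lie below 2 TPM, and the single highest point is Hist1h4n in replicate 2 at 8.28 TPM, beside 1.62 and 0 TPM in the other libraries.

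The H1 genes encode linker histones that compact the nucleosome fibre. Hist1h1a had 1.55, 1.86 and 0.92 TPM, Hist1h1c had 0.87, 1.43 and 1.23 TPM, and Hist1h1e had 0.72, 1.06 and 0.32 TPM in replicates 1, 2 and 3. In all 3 genes replicate 2 was the highest library. By counts, Hist1h1c led with 15.5, 48.6 and 28.0, followed by Hist1h1e with 16.5, 46.2 and 9.42. Hist1h1d had 14, 25 and 19 counts, but its annotated transcript is 7425 bases long, so its TPM stayed between 0.14 and 0.15. In the second quantification Hist1h1d led the H1 genes instead, with 94.4, 158.6 and 146.1 counts against 17.6, 61.2 and 32.0 for Hist1h1c. Hist1h1b was lower, at 5, 13 and 2 counts. Hist1h1t, the linker histone of developing sperm, was listed at 0 in every library, where 0 counts allow up to 3 counts.

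H2A genes included the highest mean level. Hist2h2ac had 20, 23 and 21 counts, or 4.77, 3.17 and 4.32 TPM (4.09 ± 0.825, SD, n = 3). The authors' standard deviation for the assignment of its reads was 0 counts in each library, and its CPM differed between libraries by a factor of at most 1.19. Hist2h2aa2 had 20.8, 25.6 and 15.9 counts, or 4.83, 3.43 and 3.17 TPM. Every stretch of 31 bases in its transcript also occurs in Hist2h2aa1, and the assignment error was 6.32, 7.22 and 4.76 counts. Hist2h2aa1 itself was given 0, 4.82 and 0 counts. The sum of the pair was 20.8, 30.4 and 15.9 counts. It cannot be separated from Gm20634 either, a noncoding gene on the same strand as Hist2h2aa1 with 28.6, 34.9 and 20.8 counts, which holds 89.7% of the 31-base stretches of Hist2h2aa1. Antisense genes also cover the pair, Gm20632 with 16.5, 22.5 and 28.7 counts and Gm20633 with 26.7, 43.6 and 14.5 counts, and the strand setting of the counting was not given in the sources used here. Hist3h2a had the most counts of any member, 69, 75 and 61.8. Its 2146-base transcript brings that down to 2.69, 1.53 and 1.88 TPM. It overlaps exons of Trim17 on the same strand, which had 56, 67 and 72.2 counts, and 32.1% of its 31-base stretches occur in Trim17 transcripts.

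Of the remaining H2A genes, Hist1h2ao and Hist1h2ap show how paralogs divided the reads. Hist1h2ao had 14.5, 0 and 6.94 counts and Hist1h2ap had 0, 11.3 and 0, so their order reversed between libraries. They share over 93% of their 31-base stretches, and their sum was 14.5, 11.3 and 6.94 counts. Hist1h2aa, the testis H2A, was listed at 0 in each library. The other 11 H2A genes averaged between 0.0933 TPM (Hist1h2ag) and 0.707 TPM (Hist1h2ad).

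Among H2B genes, Hist1h2bg was the highest, with 12.1, 18.7 and 11.4 counts or 2.22, 1.92 and 1.74 TPM. The libraries were close for this gene. Hist1h2bb followed with 0.74, 1.10 and 1.07 TPM and Hist1h2bj with 0.70, 0.78 and 1.24 TPM, each on fewer than 8 counts per library. Hist3h2ba, the second Hist3 gene, had 1 count in each library. Hist1h2ba, the testis H2B, and Hist1h2bl were listed at 0 throughout. The other 12 H2B genes lay between 0.0467 and 0.657 TPM on average.

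H3 genes were low as a type, with none at 10 counts in each library. Hist2h3b had 1.46, 14.9 and 8.62 counts, or 0.39, 2.31 and 1.99 TPM. All of its sequence lies on the other strand of an annotated gene, here Gm20628 with 18.0, 15.9 and 15.5 counts, and 80.6% of its 31-base stretches also occur in the noncoding gene Gm20634. Hist1h3i had 0.98, 1.75 and 0.66 TPM and Hist1h3e had 0.58, 0.72 and 1.20 TPM. The other 7 H3 genes with reads averaged between 0.0700 TPM (Hist1h3a) and 0.640 TPM (Hist1h3d). Hist1h3g and Hist2h3c1 were listed at 0, and every 31-base stretch of Hist2h3c1 is also in Gm20634.

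H4 genes held 35.3% ± 2.60 (SD, n = 3) of member TPM and H2A genes 32.5% ± 3.80, a difference within the spread of libraries. H2A was above H4 in replicate 3 (33.7% against 32.5%). Without Hist1h4n, H4 held 29.9% of member TPM, and by counts H2A held 32.7% and H4 25.9%. Hist1h4m had 9.10, 9.08 and 14.7 counts, or 3.41, 2.08 and 5.04 TPM. Its near copy Hist1h4n had 4.90, 41.6 and 0 counts, or 1.62, 8.28 and 0 TPM. Replicate 2 therefore stood far above the others for Hist1h4n and lowest for Hist1h4m. They share 91.7% of the stretches of Hist1h4m, and the assignment error was at most 4.09 counts for either gene. Their sum was 14, 50.7 and 14.7 counts, so the high value of replicate 2 remained in the sum. Hist1h4h had 12.2, 10.5 and 6.04 counts (mean 2.23 TPM), Hist1h4i had 1.88, 2.62 and 2.06 TPM, and Hist1h4c had 1.39, 2.40 and 1.74 TPM. Hist4h4, the only gene of its cluster, had 5, 16 and 6 counts. The other 7 H4 genes averaged between 0.310 TPM (Hist1h4j) and 2.17 TPM (Hist1h4k), the latter on at most 6.46 counts in a library. No H4 gene was at 0 in all libraries, the one type of which this held.

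Against the annotated transcript ends, the members fell into 4 classes. The annotation stopped within 100 bases after the stem-loop in 23 genes, ran farther past it in 23, stopped at most 2 bases past the stop codon in 15, and went beyond the stop codon without a match in 6. The limit of 100 bases was chosen after the ends were seen. Genes with the longer ends held 61.2% ± 2.41 (SD, n = 3) of member counts but 29.3% ± 2.33 of member TPM. Genes ending near the stem-loop held 24.8% ± 0.808 of counts and 47.9% ± 1.11 of TPM. Hist1h1d ran 4884 bases past the stem-loop, Hist4h4 2445, Hist1h2ac 2010 and Hist3h2a 1643 bases. The polyadenylation signal AATAAA stood in the last 40 bases of 10 of the 23 long transcripts (43.5%), against 39.3% of all protein-coding transcripts, and of none of the 23 that ended near the stem-loop. The gene totals do not say where on a transcript the reads lay, so a read past the stem-loop cannot be told apart from one before it.

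**Figure D2:**
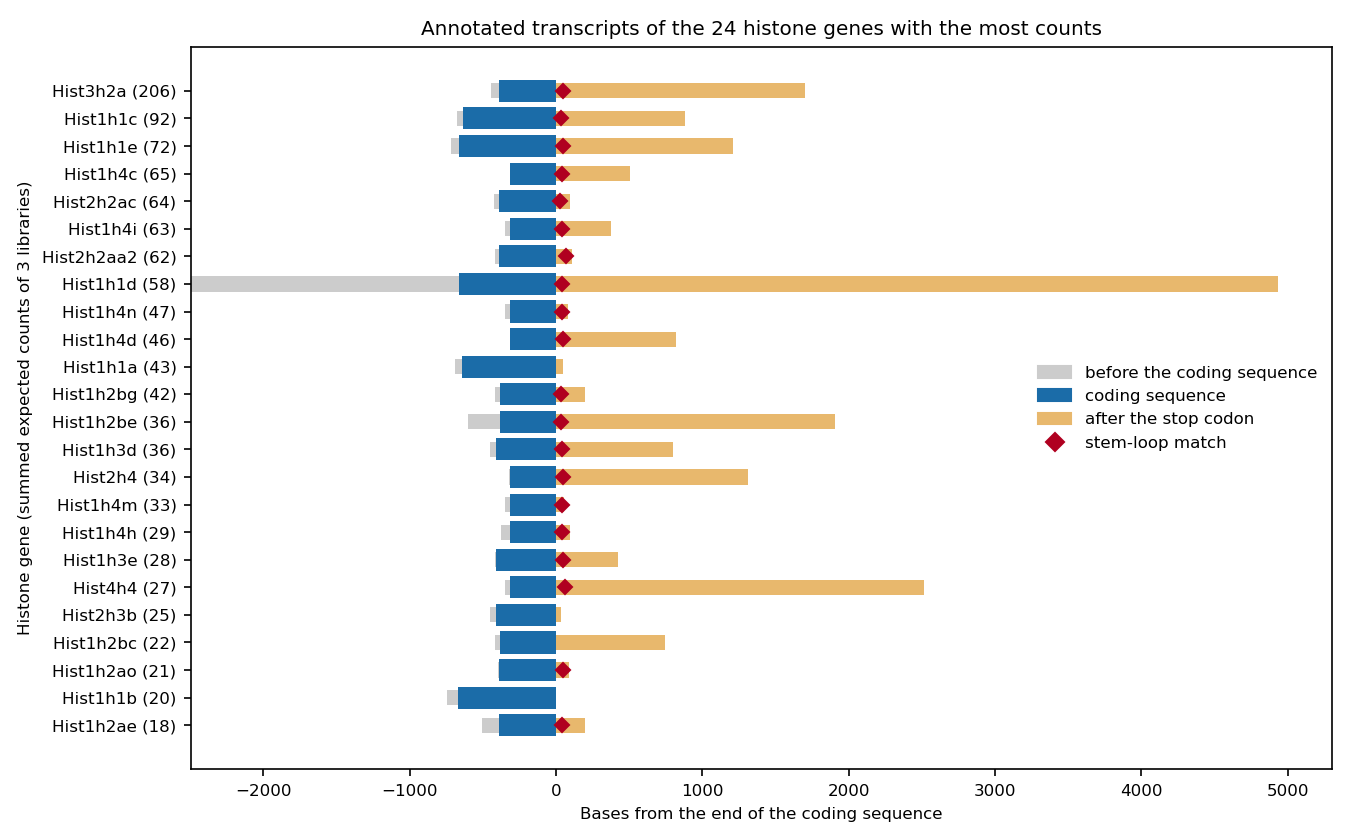
Annotated transcripts of the 24 clustered histone genes with the most expected counts, drawn in bases from the end of the coding sequence (x axis), with the summed counts of the 3 libraries after each name. Diamonds mark the stem-loop, which sits just past the stop codon where it was matched, while the annotated end lies up to 4884 bases farther on in Hist1h1d.

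Across libraries, the members were compared after TMM scaling, which sets libraries on a common scale from the bulk of genes. The summed level of the 67 genes was 31.1, 43.3 and 27.8 CPM (counts scaled to a common library size), with 95% Poisson intervals of 28.1 to 34.5, 40.1 to 46.6 and 25.1 to 30.7. Replicate 2 was thus 1.47 times the mean of the other libraries, and its interval overlapped neither. Such intervals cover counting error only. The Hist1 cluster had this pattern, at 19.0, 32.1 and 18.1 CPM with intervals of 16.6 to 21.7, 29.4 to 35.0 and 16.0 to 20.5. Hist2 was at 5.91, 5.55 and 4.72 CPM and Hist3 at 5.82, 4.62 and 4.52 CPM, with overlapping intervals. By type, H1 genes summed to 5.15, 9.54 and 4.78 CPM and H4 genes to 8.01, 12.4 and 6.48 CPM, both highest in replicate 2 with intervals apart. H4 without Hist1h4n was at 7.60, 9.82 and 6.48 CPM, with the intervals of replicates 1 and 2 overlapping. H2A genes, at 11.9, 11.2 and 9.47 CPM, overlapped in all libraries, but on plain library totals the intervals of replicates 1 and 3 were apart (11.5 to 16.1 and 7.46 to 10.6). On those totals, the sum over all 67 genes was 35.7, 40.2 and 26.1 CPM with overlapping intervals for replicates 1 and 2 (32.2 to 39.5 and 37.3 to 43.3), and replicate 3 was the lowest, while Hist1 in replicate 2 stayed apart from both others. The H1 and H4 intervals of replicates 1 and 2 overlapped on that scale. In the second quantification the 67 genes summed to 894.0, 1282 and 820.8 counts. The TMM-scaled library sizes there were 19714489, 27067270 and 23621046, so replicate 2 lay close to replicate 1 and replicate 3 was the lowest. Hist2h2be alone held 241, 44.0 and 49.0 of these counts, so this gene raised the sum of replicate 1 far more than the others.

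**Figure D3:**
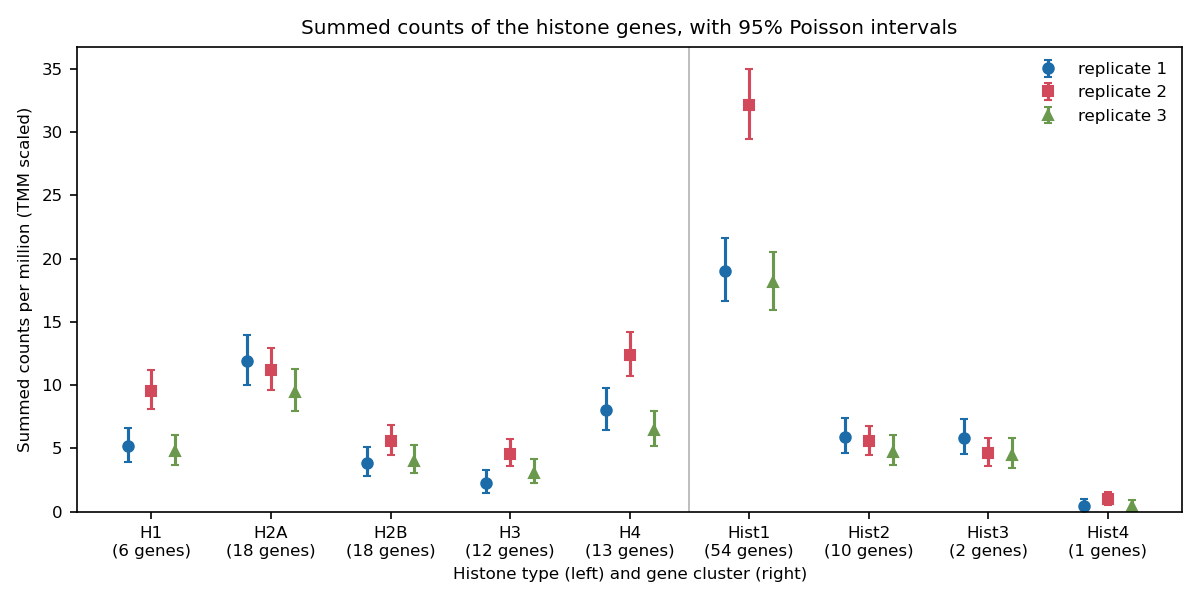
Summed TMM-scaled CPM (y axis) of the genes of each histone type and each cluster (x axis) in replicates 1, 2 and 3, with 95% Poisson intervals as bars. Hist1, H1 and H4 are highest in replicate 2, at 32.1, 9.54 and 12.4, whereas H2A, Hist2 and Hist3 overlap across libraries. H2B, H3 and Hist4 are also highest in replicate 2, at 5.61, 4.56 and 0.973, with bars that overlap another library.

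A mean of 10 counts or more was reached by 16 members, of which 12 lay above their mean over libraries in replicate 2, against 50.3% of the 13262 genes with such a mean. In replicate 1 this held for 8 of 16, against 51.5% of genes, and in replicate 3 for 4 of 16, against 51.5%. The median shift of members was -0.01, 0.29 and -0.21 on the log2 scale, beside 0.02, 0.00 and 0.01 for all genes. With library totals the median of all genes itself moved by 0.21 in replicate 1, -0.10 in replicate 2 and -0.08 in replicate 3. Members differed from it by -0.02, 0.29 and -0.22. Scaling moves all genes of a library alike, so this difference is the same under any scaling and is no check on it. The 23 S phase genes with enough counts had median shifts of -0.03, 0.03 and -0.03, and the 10 macrophage markers of -0.17, 0.22 and -0.06. The lowest RNA input was also in replicate 2. The part of input, and of the shift in macrophage markers, in the histone values was not tested.

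A likelihood-ratio test with Poisson variance in edgeR asked which members differed between libraries beyond counting noise. It compares the libraries as sequenced, not conditions. At an adjusted p under 0.05 it called 5 of 16 members, against 58.8% of all genes tested. Low counts limit what this test can call. It also takes estimated counts as observed, so errors in dividing reads between near copies are not in its p-values. Hist1h4n, at 0.407, 2.53 and 0 CPM, had an adjusted p of 4.6e-13 in edgeR. The assignment error of this gene was 2.02, 4.09 and 2.19 counts, so its 0 in replicate 3 is uncertain. For Hist1h1e the CPM were 1.37, 2.81 and 0.678, a 4.14-fold range (adjusted p = 3.6e-05, edgeR). Hist1h1c, at 1.29, 2.96 and 2.02 CPM (adjusted p = 0.0195, edgeR), and Hist1h4c, at 0.939, 2.18 and 1.26 CPM (adjusted p = 0.0259, edgeR), were also highest in replicate 2. Hist2h4 went the other way, at 1.41, 0.608 and 0.504 CPM, and was highest in replicate 1 (adjusted p = 0.0475, edgeR). Without replicate 2 only Hist2h4 was called, without replicate 1 only Hist1h1e and Hist1h4n, and without replicate 3 the other 4 were called but Hist2h4 was not. Hist1h1a, at 0.914, 1.46 and 0.576 CPM, missed the threshold (adjusted p = 0.0770, edgeR). The biological coefficient of variation, the spread beyond counting noise, had a median of 29.7% over these members and 25.8% over all genes.

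The second quantification consisted of estimated counts and TPM per transcript, summed here per gene. Over the 59 members with a mean of at least 1 count in either, the median ratio of second to first was 1.01 on the TPM + 0.1 scale, which understates folds of low genes. The second was more than 1.5-fold higher in 14 members, against 63.1% of 16716 protein-coding genes, and more than 1.5-fold lower in 5, against 0.407%. Among other genes with introns the median ratio was 1.83 (16208 genes), and among other single-exon genes 1.17 (449 genes), and the members' median was nearer to the latter. Of those single-exon genes 38.3% were more than 1.5-fold higher and 4.45% lower, beside 23.7% and 8.47% of members, whereas 0.265% of genes with introns were lower.

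Hist2h2be had the largest gap, with 5, 3 and 8 counts in the first and 241, 44.0 and 49.0 in the second, an 11.9-fold difference in mean TPM + 0.1. In the second quantification replicate 1 was therefore the highest library by far, a pattern the first did not have. Hist2h2ac, across the printed promoter, had 20, 23 and 21 counts in the first and 23.4, 67.0 and 33.0 in the second. For Hist4h4 the counts went from 5, 16 and 6 to 74.9, 65.6 and 62.1, and for Hist1h1d from 14, 25 and 19 to 94.4, 158.6 and 146.1. Hist1h2bh had 2, 4 and 0 counts in the first and 14.9, 22.2 and 19.7 in the second. These 4 genes have annotated transcripts of 1679 to 7425 bases that reach 1258 to 4931 bases past the stop codon. Some other long transcripts had no such gap. Hist1h2ac (2482 bases), Hist3h2a (2146 bases), Hist1h1e (1930 bases) and Hist2h4 (1630 bases) had ratios of second to first of 0.947, 0.994, 0.930 and 0.951. Hist1h2be (2506 bases) had a smaller gap, with a ratio of 1.59. In the opposite direction, Hist1h2br had 3.36, 2.04 and 4.51 counts in the first and 0, 0 and 8.48 in the second. Its near copy Hist1h2bq rose from 1.45, 9.34 and 0 to 32.4, 68.0 and 34.5, all on 1 isoform annotated as subject to nonsense-mediated decay. Which quantification is nearer to the RNA in the cells was not tested.

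**Figure D4:**
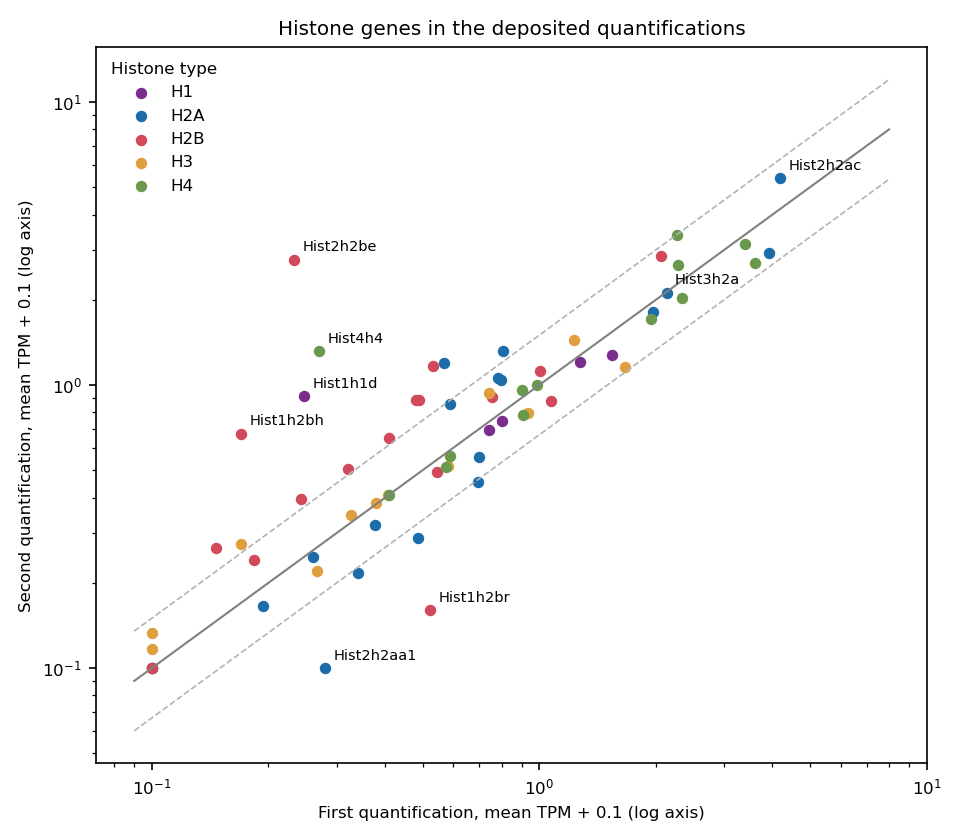
Mean TPM + 0.1 over 3 libraries of each clustered histone gene in the first (x axis, log) and second (y axis, log) deposited quantification, coloured by histone type. The solid line marks equal values and the dashed lines a 1.5-fold difference, with 14 genes above the upper line, led by Hist2h2be, and 5 below the lower line among the 59 genes compared.

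Within the 12 head-to-head pairs, the first quantification gave the H2A gene more counts in 7, the H2B gene more in 4 and no counts to either in 1, the testis pair Hist1h2aa and Hist1h2ba. Hist2h2ac and Hist2h2be had the largest difference in counts, 64.0 against 16.0 over the libraries, and the second quantification gave the larger total to Hist2h2be instead. Hist1h2bg, with 42.2 counts, exceeded its partner Hist1h2ae, with 18.1. The remaining pairs rest on at most 23 counts a gene, and no test was made of their order.

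By median, the members stood lower than the variant genes listed here as replication-independent. Among these 11 variant genes, the median was 1.29 TPM and 6 had at least 10 counts in each library. H2afy, the macroH2A gene, had 53.8, 40.3 and 58.7 TPM, H3f3b had 45.0, 44.0 and 56.0 TPM, and Cenpa, the centromeric H3, had 20.1, 19.6 and 30.0 TPM. Each lay above every clustered gene in every library. H3f3a and H2afz averaged 10.8 and 8.91 TPM. The other variants lay within the range of member means, from H2afj at 1.29 TPM to H2afy2 at 0.197 TPM and H1fx, listed at 0. The median log2(TPM + 0.1) of members was lower than that of the variants by 1.67 in replicate 1, 0.71 in replicate 2 and 2.08 in replicate 3. Averaged over libraries first, the difference was -1.76.

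Genes that make and handle histone mRNA were measurable in all libraries. All 17 transcription and 3′ end processing factors had at least 10 counts in each, with a median of 2.81 TPM. Srrt, a partner of the cap-binding complex, was the highest at 61.2 TPM, with Eri1, a nuclease that trims histone mRNA ends, at 12.8 and Upf1, a helicase of histone mRNA decay, at 8.78. Lsm11, a part of the U7 particle, was the lowest, with 0.68, 0.22 and 0.15 TPM. Of 17 histone chaperones and acetylation factors 16 had at least 10 counts in each library, with a median of 12.8 TPM. They were led by Atrx at 145.8, Ubn1 at 38.2 and Npm1 at 30.9 TPM. Asf1b, a chaperone of newly made H3 and H4 in dividing cells, was the lowest at 0.0567 TPM. S phase genes had a median of 0.973 TPM, with 23 of 27 at 10 counts or more in each library. Tk1 was the highest at 22.2 ± 5.18 TPM, followed by Pcna at 31.4, 6.52 and 24.1 TPM and by Pola1 at 9.10 ± 1.58 TPM (SD, n = 3). By CPM, Pcna was lowest in replicate 2 (25.0, 8.99 and 23.8), the library in which the histone sum was highest. Pola1 was highest there (42.1, 56.0 and 47.1 CPM), and the median shift of the S phase genes in that library was 0.03. Mitosis genes had a median of 0.687 TPM with 8 of 13 at 10 counts in each library, and ranged from Plk1 at 0.147 to Mki67 at 112.7 TPM, with Top2a at 4.66 and Cenpe at 2.96.

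**Figure D5:**
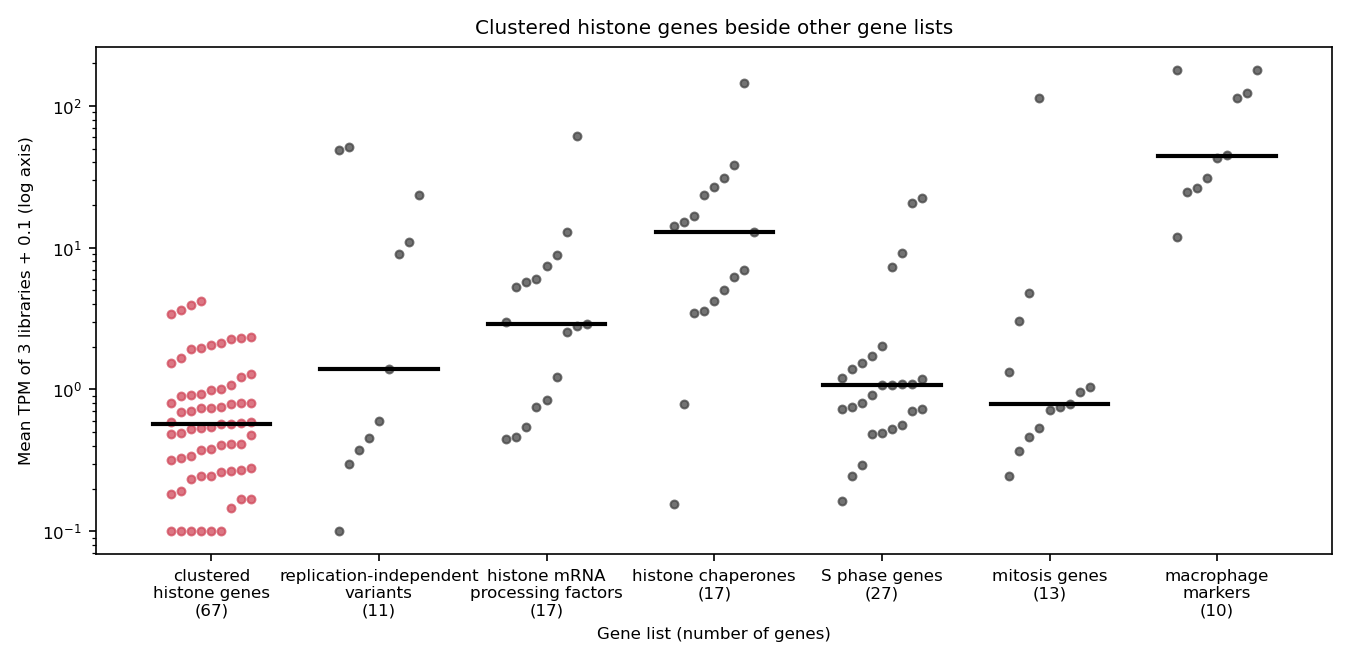
Mean TPM + 0.1 over 3 libraries (y axis, log) of each gene in the clustered histone set and in 6 other lists, with black bars at the medians. The clustered histone genes span 0 to 4.09 TPM around a median of 0.473, below the medians of the other lists shown.

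The cell type was checked by markers. All 10 macrophage markers had at least 10 counts in each library, with a median of 43.9 TPM, and their summed level ranged from 755.5 to 790.0 TPM. Summed TPM was 1.16 to 2.40 for 5 T cell markers, 0.05 to 0.20 for 5 B cell markers, 0.19 to 0.73 for 5 neutrophil markers, 0.10 to 0.38 for 5 erythroid markers, 0.03 to 0.91 for 5 fibroblast markers and 2.08 to 4.36 for 4 megakaryocyte markers. Cd3d, Cd3e, Cd3g, Cd79b, Pax5, Hba-a1, Hbb-bt, Gp1bb and Pdgfra were at 0 in each library in the first quantification. The second gave Cd3d a mean of 18.0 TPM, Pdgfra 0.934 TPM and Cd3g 0.589 TPM, so the absence of these markers held in 1 quantification only. The fibroblast markers summed to 1, 73 and 48 counts, or 0.03, 0.91 and 0.88 TPM. Replicates 2 and 3 were thus alike in these markers and replicate 1 was low, whereas the histone sum was lowest in replicate 3. Any part of the fibroblast markers in the histone values was not tested. Bulk RNA cannot tell fewer cells of a kind from less RNA per cell, here cells in S phase from histone RNA in each.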

How the data were processed

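The deposited tables of the first quantification held expected counts and TPM per gene, per the file headers, with the authors' assignment errors, and those of the second held estimated counts and TPM per transcript. The build was mm10 with GENCODE M21, per the deposited notes; neither tools nor strand setting are given in the sources used here. Rows naming no mouse gene held 1.28%, 0.427% and 0.383% of counts and were left out. Members and lists were chosen with earlier results of these data known. Named genes were the 3 highest of each type, the 5 with the widest range between libraries, the 5 with the largest gap between quantifications, testis members, Hist3 and Hist4 genes, list extremes and overlapping genes (a few list members are not reported here on their own); others were named after their values were seen.

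Expected counts were rounded for edgeR 4.0.16 (R 4.3.3): TMM scaling, a Poisson likelihood-ratio test over the 3 libraries for 13262 genes with a mean of at least 10, and Benjamini-Hochberg adjustment. The test was tried on simulated data. CPM used 0.5 added counts for shifts only. Alternatives used library totals, DESeq2 1.42.0 size factors, no filter, the second quantification and each library left out. Shared sequence was counted in stretches of 31 bases over all GENCODE transcripts.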

Additional observations from a re-analysis of the deposited data

How the results depend on the processing

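In the main setting 9 members reached 10 counts in every library. This became 37 with a minimum of 1 count, 2 with a minimum of 20 and 17 in the second quantification, and ranged from 9 to 14 with 1 library left out. Summed TPM rose from 53.9 to 281.3 when only protein-coding genes set the scale, was 61.4 in the second quantification, and ranged from 49.9 to 58.2 with 1 library left out. The median log2 difference from the variant genes was -0.70 with a pseudocount of 1 and -3.51 among genes with a mean of at least 10 counts; it was -1.12 in the second quantification and -2.01 to -1.33 with 1 library left out, so the direction held in these settings and the size did not. The median shift of members in replicate 2 was 0.54 without a filter on low counts. Leaving out 1 library gave shifts of -0.30 to 0.11 for replicate 1, 0.27 to 0.30 for replicate 2 and -0.27 to -0.11 for replicate 3. Members called different between libraries numbered 5; this was 12 of 61 without a filter, 10 of 25 in the second quantification, and 1 to 4 with 1 library left out. With library totals 4 were called, of which 3 were shared with the 5; Hist1h1c and Hist1h4c were lost (adjusted p = 0.0948 and 0.0773, edgeR) and Hist3h2a was added. Hist1h1e ranged from an adjusted p of 3.1e-06 to 0.138 over the alternatives (edgeR), the last without replicate 2. Shares of counts by type and cluster moved by less than their spread over libraries when any library was left out. With 3 libraries a mean cannot move farther than that, so this is no check on the shares. With TPM the move was below the spread for 3 of 9 shares and in the second quantification for 1 of 9. Without Hist1h4n, chosen after seeing the data, the sum in replicate 2 was 1.39 times the mean of the other libraries, and with library totals 1.30 times. In the second quantification, after TMM scaling, replicate 2 lay close to replicate 1 (894.0, 1282 and 820.8 counts before scaling). Hist2h2be alone held 241 of the counts in replicate 1. The median shift over 25 members in that quantification was -0.10, 0.31 and -0.19 in replicates 1, 2 and 3, so by this measure replicate 2 was still the highest. No paired analysis was possible because there is 1 group. Depth limits most single genes: 3 counts, the most that a count of 0 allows, equal 0.249, 0.183 and 0.216 CPM.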

Other observations

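The 3 symbols of the same form outside the rule are annotated as pseudogenes. Hist1h2aj and Hist1h2al were listed at 0 in each library, and Hist3h2bb-ps had 1, 2 and 5 expected counts. Hist3h2ba shares 32.9% of its 31-base stretches with Hist3h2bb-ps, and had 1 count in each library.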
